A study of Mus musculus with 2 samples.

Results

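Rbfox1, Rbfox2 and Rbfox3 are the Rbfox family of splicing regulators, and make up 3 of the 32285 genes in the count matrix. They were taken by gene symbol, and each symbol matched 1 gene. The sample was brain tissue from a mouse embryo at E18.5 on a C57BL/6 background with a Ctcf homozygous mutation (CTCF-R567W, introduced with CRISPR/Cas9). It was profiled by SPARC-seq, which reads RNA and accessible chromatin from the same barcodes. There was 1 RNA library and 1 accessibility library, both of this genotype, so no effect of the mutation could be measured. The sources used here do not give the number of embryos or the part of the brain that was taken. All comparisons were made between groups of barcodes of these libraries, without a test between groups. Values in brackets after a level or ratio are 95% intervals for counting error. They leave out any spread between animals and any spread between spots beyond counting.

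Rbfox proteins bind a short motif in introns of pre-mRNA and promote the skipping or inclusion of an exon, depending on the side on which they bind. Rbfox1 is used in neurons, heart and skeletal muscle, Rbfox2 in many tissues including embryonic brain and muscle, and Rbfox3, the antigen known as NeuN, in postmitotic neurons. Each gene has several alternative promoters, and the proteins work in a large assembly with other splicing regulators.

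The barcodes formed a grid. Each consisted of 2 segments of 8 bases, and 2500 pairs occurred in the fragment file, of which 1993 were in the count matrix. From this structure they are taken as spots, each of which may contain more than 1 cell, and 1992 spots were kept. The libraries held 8726497 unique molecular identifiers (UMIs, counted RNA molecules) and 47109447 fragments in matrix barcodes, with 907 to 15365 UMIs and 5759 to 115587 fragments per spot. Muscle-rich spots were the top 10% of kept spots by the share of UMIs from Acta1 (skeletal muscle actin) and Ttn (titin), and neuron-rich spots the top 10% by Tubb3 (a neuronal tubulin) and Stmn2 (stathmin 2). After 10 spots in both were left out, 189 spots remained in each group. RNA levels are given as CPM (UMIs per 1000000 UMIs of the same spots).

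The groups were enriched, not pure. The summed level of 11 skeletal muscle markers was 13654 CPM in muscle-rich spots, 3704 in neuron-rich spots and 4139 in the other kept spots, and that of 8 neuron markers was 3369, 6313 and 4733. These sums include the genes that chose the spots. Without Acta1 and Ttn the sum of the other 9 muscle markers was 9599, 2579 and 3005 CPM, and without Tubb3 and Stmn2 that of the other 6 neuron markers was 2694, 4022 and 3688. None of these markers was at 0 in either group, although the labels name only brain as the tissue. Fibroblast markers (2698 against 953 CPM, 5 of 5 higher in muscle-rich spots) and epithelial markers (365 against 77.8, 5 of 5 higher) moved with the muscle-rich group, as did erythroid (7845 against 5549, 5 of 5), endothelial (272 against 232, 5 of 5) and cycling markers (151 against 89.7, 4 of 4). Pituitary markers were low in neuron-rich spots, at 102 CPM against 192 in muscle-rich and 200 in the other kept spots. Median fragments per spot were 32280 in muscle-rich and 19773 in neuron-rich spots, and fragments shorter than a nucleosome made up 53.8% and 44.1%. A set of 6 second barcode segments held 77.8% of the muscle-rich spots, and no segment held 5 or more spots of both groups. The part of these differences in the results below was not tested, except where values within segments are given.

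All 3 genes were detected in most kept spots. RNA spread between spots was not estimated. Rbfox1 (ENSMUSG00000008658, GRCm38 chr16:5885355-7411526, plus strand) had 22166 UMIs in kept spots, or 2545 (2511 to 2578) CPM, and ranked 6 by UMIs among 21702 protein-coding genes. A spot held a median of 10 Rbfox1 UMIs (0 to 38), and 8 of 1992 spots held none. Rbfox2 (ENSMUSG00000033565, chr15:77078990-77307004, minus strand) had 3746 UMIs, or 430.0 (416 to 444) CPM, with a median of 2 per spot (0 to 9) and 393 spots at 0. Rbfox3 (ENSMUSG00000025576, chr11:118489762-118911597, minus strand) had 4052 UMIs, or 465 (451 to 479.7) CPM, with a median of 2 per spot (0 to 10) and 382 spots at 0. The order changed when the counts were set against gene length. Per kb of gene body, Rbfox2 had 16.4 UMIs, Rbfox1 14.5 and Rbfox3 9.61, over bodies of 228, 1526 and 422 kb. The antisense gene 1700109K24Rik, with 208 UMIs, lies inside Rbfox2 and was the only gene inside a member with at least 50 UMIs. Whether counting used strand is not stated in the sources used here, and without it reads of this pair cannot be told apart.

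RNA of the Rbfox genes differed little between muscle-rich and neuron-rich spots. Rbfox1 had 2316 (2214 to 2420.4) CPM in muscle-rich spots, 2673 (2558 to 2792) in neuron-rich spots and 2558 (2521 to 2596) in the other kept spots. Its muscle-rich to neuron-rich ratio was 0.866 (0.814 to 0.922), a log2 ratio of -0.21. The spots of both groups overlapped over nearly their whole range, with 0 to 33 Rbfox1 UMIs in muscle-rich spots (median 10) and 1 to 32 in neuron-rich spots (median 9), at medians of 4404 and 3694 UMIs of all genes per spot. Rbfox2 had 408 (366 to 453) and 429 (383 to 478) CPM, a ratio of 0.951 (0.815 to 1.11). Rbfox3 had 412 (370.4 to 458) and 466 (418 to 517) CPM, a ratio of 0.886 (0.762 to 1.03). The intervals of Rbfox2 and Rbfox3 included equal levels, although with the top 20% of spots that of Rbfox3 did not, at a log2 ratio of -0.18 (-0.33 to -0.024), and the intervals of the 3 ratios overlapped each other. The genes that chose the spots had ratios of 4.14 (3.72 to 4.61) for Acta1, 3.09 (2.77 to 3.44) for Ttn, 0.296 (0.257 to 0.340) for Tubb3 and 0.293 (0.257 to 0.334) for Stmn2.

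None of the 3 genes passed 1.5-fold in RNA. Among 1588 genes with at least 200 UMIs in both groups together, 5.29% were 1.5-fold or more higher in muscle-rich spots and 6.74% in neuron-rich spots. The median ratio of these genes was 0.909, so that Rbfox1 and Rbfox3 lay slightly below it and Rbfox2 slightly above. The proportions among the members also differed little. Per Rbfox1 UMI there were 0.176 (0.157 to 0.197) Rbfox2 UMIs in muscle-rich spots and 0.160 (0.142 to 0.180) in neuron-rich spots. For Rbfox3 these values were 0.178 (0.159 to 0.200) and 0.174 (0.155 to 0.195). Fewer cells of a type and less RNA per cell cannot be told apart in such spots.

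Over all barcode segments, accessibility separated the genes more than RNA did. Over the gene body, per 1000000 of all fragments, Rbfox1 had 525 in muscle-rich and 638 in neuron-rich spots, a ratio of 0.823 (0.781 to 0.868). Rbfox3 had 321 in muscle-rich and 519 in neuron-rich spots, a ratio of 0.618 (0.581 to 0.658). Rbfox2 went the other way, with 179 in muscle-rich and 129 in neuron-rich spots, a ratio of 1.39 (1.25 to 1.54). The intervals of the 3 gene bodies did not overlap. Ratios over the bodies of all genes were not computed, so this separation cannot be read as particular to the 3 genes. Between muscle-rich and other kept spots of the same segments, given below, the intervals of the 3 gene bodies did overlap. The gene body ratios there were 1.06 for Rbfox1, 1.06 for Rbfox2 and 0.995 for Rbfox3.

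The protein-coding transcripts of the 3 genes in GENCODE M21 start at 14 places when starts within 2 kb are merged, numbered here from the upstream end of each gene (6 in Rbfox1, 3 in Rbfox2 and 5 in Rbfox3). Fragments within 1 kb are given as FPM (fragments per 1000000 promoter fragments of the same spots). The following sequences lie at 3 of the starts described below, none of them in Rbfox2. They are printed on the strand of the gene with matches to the E-box CANNTG on either strand in capitals. This is the motif of MyoD and of neurogenic bHLH factors. The first is the RefSeq promoter of start 4 of Rbfox1 without its last 50 bases (GRCm38.p6, chr16:7069585-7069834, plus strand), the second the middle of the peak at start 2 of Rbfox1 (chr16:6348740-6349039, plus strand) and the third the middle of the peak at start 2 of Rbfox3 (chr11:118909707-118910006, minus strand).
Rbfox1 start 4 promoter: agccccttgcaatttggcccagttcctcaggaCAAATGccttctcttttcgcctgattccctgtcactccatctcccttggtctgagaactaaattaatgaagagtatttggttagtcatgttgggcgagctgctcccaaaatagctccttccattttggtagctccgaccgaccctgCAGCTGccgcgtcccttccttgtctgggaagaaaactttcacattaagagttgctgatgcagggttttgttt
Rbfox1 start 2 peak: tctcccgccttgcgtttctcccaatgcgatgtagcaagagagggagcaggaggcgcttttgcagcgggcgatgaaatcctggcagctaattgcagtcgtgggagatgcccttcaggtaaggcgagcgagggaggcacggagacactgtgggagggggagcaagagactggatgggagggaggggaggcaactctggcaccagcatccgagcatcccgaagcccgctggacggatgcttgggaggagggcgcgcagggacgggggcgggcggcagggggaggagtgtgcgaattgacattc
Rbfox3 start 2 peak: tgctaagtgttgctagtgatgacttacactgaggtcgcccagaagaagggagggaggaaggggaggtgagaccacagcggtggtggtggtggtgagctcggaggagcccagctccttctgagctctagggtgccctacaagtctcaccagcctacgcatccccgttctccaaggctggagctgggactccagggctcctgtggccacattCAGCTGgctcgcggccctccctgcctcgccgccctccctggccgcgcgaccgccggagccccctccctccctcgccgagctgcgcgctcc
The start 4 promoter held 2 matches at a GC content of 48.4%. Of 32851 promoters of the table, 66.2% held a match in the same 250 bases, and their median GC content was 52.4%. The peak at Rbfox1 start 2 held 0 matches and 20 CpG at 63.7% GC, and the peak at Rbfox3 start 2 held 1 match and 18 CpG at 66.7% GC. In the middle 300 bases of 91150 peaks, 79.8% held a match, and the medians were 51.0% GC and 5 CpG. The MEF2 consensus, of a family of muscle and neuronal factors, had 0 matches in the 3 windows on either strand, against 2.92% of promoter windows of 250 bases and 2.30% of peak windows with a match. RefSeq promoter entries matched Rbfox1 (2 entries) and Rbfox3 (1 entry).

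Within Rbfox1 only start 2 had an interval that excluded equal levels. Among 7455 principal promoters with 20 to 49 fragments in both groups together, a range that held 8 of the 14 starts, 7.70% had an interval below 1 and 5.46% above 1. Start 2 (chr16, 6349138) had 16 and 28 fragments in muscle-rich and neuron-rich spots, or 18.0 and 58.9 FPM, a ratio of 0.306 (0.155 to 0.586). The other kept spots lay between them at 38.0 FPM. The principal start 4 (chr16, 7069846), whose promoter is shown above, had 13 and 4 fragments, or 14.7 and 8.42 FPM, a ratio of 1.74 (0.538 to 7.33) that did not exclude equal levels. Its peak held 15 cut sites, from 9 fragments, in muscle-rich spots and 0 in neuron-rich spots. The lower limit of its ratio was 1.98 by cut sites and 1.13 by fragments, at counts far below the minimum of 50 set for peaks. With the top 5% of spots the ratio of start 4 was 0.976 (0.261 to 4.43). Start 1, the most upstream, had 21 and 13 fragments, a ratio of 0.866 (0.414 to 1.88). Starts 3, 5 and 6 had 3 to 9 fragments in each group and intervals that included 1. The interval of start 2 overlapped those of the other starts, and stayed below 1 under the 5 other ways of choosing the spots that changed them. With the top 20% of spots, start 1 at 0.559 (0.319 to 0.979) and start 3 at 0.240 (0.0550 to 0.833) also excluded 1. Of the Rbfox1 start fragments, start 2 took 49.1% in neuron-rich spots (28 of 57, exact interval 35.6 to 62.7%) and 23.2% in muscle-rich spots (16 of 69, exact interval 13.9 to 34.9%). Summed over the 6 starts, the log2 ratio was -0.62 (-1.15 to -0.092), against 0.80 (-0.89 to 2.87) at the principal start alone.

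Within Rbfox2 the most upstream start was above 1 and both downstream starts were below 1. The principal start 1 (chr15, 77306605 to 77307004, 3 transcripts) had 128 and 43 fragments in muscle-rich and neuron-rich spots, or 144 and 90.5 FPM, a ratio of 1.60 (1.12 to 2.31). Start 2 (77245586) had 22 and 25, a ratio of 0.472 (0.253 to 0.871). Start 3 (77153556 to 77153812, 6 transcripts) had 36 and 33, a ratio of 0.585 (0.354 to 0.968). Start 1 took 68.8% in muscle-rich spots (128 of 186, exact interval 61.6 to 75.4%) and 42.6% in neuron-rich spots (43 of 101, exact interval 32.8 to 52.8%). The directions held under the 5 other ways of choosing the spots, but not all the intervals did. With other muscle genes in place of Acta1 and Ttn, the ratio was 1.37 (0.967 to 1.97) for start 1, 0.562 (0.318 to 1.001) for start 2 and 0.749 (0.474 to 1.20) for start 3. With the top 5% of spots, start 2 at 0.532 (0.215 to 1.33) and start 3 at 0.627 (0.295 to 1.36) no longer excluded 1. With other neuron genes start 2 was 0.646 (0.337 to 1.25), and with at least 2000 UMIs per spot start 3 was 0.610 (0.372 to 1.003). Summed over the 3 starts, the log2 ratio was -0.019 (-0.38 to 0.35).

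All 5 starts of Rbfox3 had ratios below 1, of which 3 had intervals below 1. All 5 had 20 to 49 fragments in both groups together. The principal start 2 (chr11, 118909550 to 118909572) had 12 and 23 fragments in muscle-rich and neuron-rich spots, or 13.5 and 48.4 FPM, a ratio of 0.280 (0.127 to 0.585). Start 4 (118569910) had 14 and 22, a ratio of 0.341 (0.161 to 0.697), and start 5 (118507353) had 13 and 18, a ratio of 0.387 (0.174 to 0.836). Start 1 (118911597) and start 3 (118761041) had ratios of 0.893 (0.366 to 2.31) and 0.783 (0.367 to 1.73). The interval of start 2 stayed below 1 under the 5 other ways of choosing the spots. That of start 4 did not with the top 20% of spots, at 0.601 (0.346 to 1.04), and that of start 5 did not with the top 5%, at 0.488 (0.130 to 1.82), or with other neuron genes, at 0.463 (0.203 to 1.04).

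At the promoters of the marker genes, whose accessibility took no part in choosing the spots, the ratio was 2.68 (1.24 to 6.63) for Acta1, 0.237 (0.130 to 0.415) for Tubb3 and 0.309 (0.166 to 0.559) for Stmn2. The Ttn promoter had 5 and 0 fragments, with a lower limit of 0.491 that did not exclude equal levels. Over the gene body the ratio of Acta1 was 0.887 (0.553 to 1.44), that of Ttn 1.22 (1.07 to 1.38), that of Tubb3 0.573 (0.392 to 0.836) and that of Stmn2 0.644 (0.500 to 0.829). Among 9587 promoters with at least 50 fragments in both groups together, 14.8% were 1.5-fold or more higher in muscle-rich spots and 8.99% in neuron-rich spots. Of the members, only the principal promoter of Rbfox2 reached that minimum, with 124 and 39 fragments and a ratio of 1.70 (1.18 to 2.51), above 90.6% of these promoters.

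**Figure D1:**
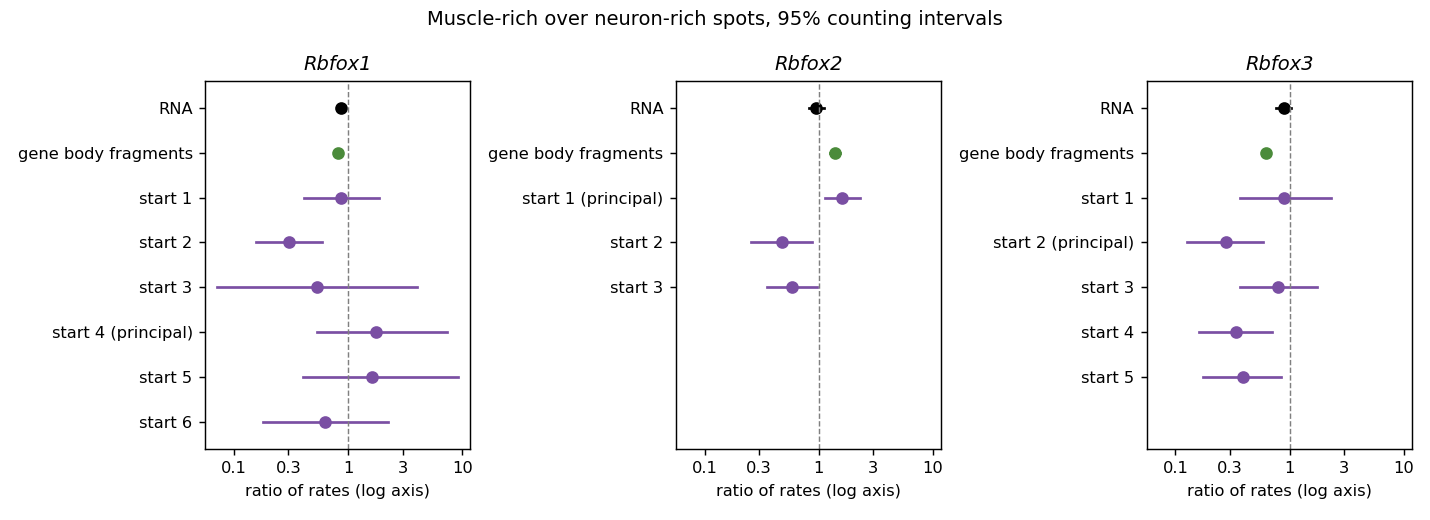
Ratio of muscle-rich over neuron-rich spots for RNA (black), gene body fragments (green) and each annotated coding start (purple) of Rbfox1, Rbfox2 and Rbfox3, on a log axis with 95% counting intervals. RNA ratios sit at 0.866, 0.951 and 0.886, while the starts range from 0.280 at start 2 of Rbfox3 to 1.74 at start 4 of Rbfox1.

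The low accessibility of Rbfox1 and Rbfox3 in muscle-rich spots was not found between spots of the same barcode segments. Since no segment held 5 or more spots of both groups, muscle-rich spots were set against the other kept spots, first over all segments and then within the 9 second segments that held at least 5 spots of each (162 and 241 spots). Start 2 of Rbfox1 had a ratio of 0.475 (0.266 to 0.793) over all segments and 1.89 (0.846 to 4.21) within them. Start 2 of Rbfox3 went from 0.362 (0.184 to 0.649) to 1.28 (0.611 to 2.69), and start 4 of Rbfox3 from 0.495 (0.264 to 0.855) to 1.15 (0.588 to 2.26). Of the 14 starts, 11 had a ratio below 1 over all segments, and 9 of these were above 1 within them. Among the 7455 promoters with 20 to 49 fragments, 17.0% went from below 1 to above 1, or 34.8% of the 3644 that were below 1 over all segments. The within-segment ratios of these 3 starts rest on 14 and 18, 12 and 20 and 12 and 22 fragments. The gene bodies, with far more fragments, went from 0.875 (0.844 to 0.907) to 1.06 (1.01 to 1.12) for Rbfox1, from 0.661 (0.631 to 0.692) to 0.995 (0.934 to 1.06) for Rbfox3 and from 1.25 (1.17 to 1.33) to 1.06 (0.978 to 1.16) for Rbfox2.

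The other kept spots of those 9 segments were themselves low at these starts. They had 14.8 FPM at start 2 of Rbfox1, against 45.8 in the 1373 other kept spots elsewhere (ratio 0.324, 0.187 to 0.528). At start 2 of Rbfox3 they had 16.5 against 44.4 FPM (ratio 0.371, 0.221 to 0.593), and over the body of Rbfox3 347 against 528 per 1000000 fragments (ratio 0.658, 0.633 to 0.685). Their Acta1 RNA was 1.57 times that elsewhere (1.45 to 1.69), and their Tubb3 RNA 0.724 times that elsewhere (0.652 to 0.802). The Acta1 promoter went against its RNA, at 0.474 times that elsewhere (0.242 to 0.857), while the Tubb3 promoter was at 0.405 (0.294 to 0.547).

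Starts 1 and 3 of Rbfox2 kept their direction within segments, with intervals that excluded 1. Starts 4, 5 and 6 of Rbfox1 also kept theirs, with intervals that included 1. Start 4 of Rbfox1 went from 1.56 to 1.95 (0.723 to 5.29), start 5 from 1.80 to 4.35 (0.735 to 25.7) and start 6 from 0.996 to 0.809 (0.270 to 2.43). Of promoters with 20 to 49 fragments and a ratio below 1 over all segments, 34.8% crossed to above 1. No share was computed for promoters above 1, the side on which start 1 of Rbfox2 lay. Starts 1 and 3 of Rbfox2 also had more fragments, and no such share was computed for promoters in their range. Start 1 had a ratio of 1.57 (1.28 to 1.91) over all segments and 1.52 (1.16 to 1.99) within them, from 121 and 125 fragments. Start 3 had 0.556 (0.383 to 0.785) and 0.586 (0.370 to 0.930), from 34 and 80 fragments. Start 2 of Rbfox2 went from 0.619 (0.379 to 0.965) to 1.01 (0.566 to 1.81). In RNA, Rbfox1 went from 0.905 (0.864 to 0.948) to 1.04 (0.974 to 1.11) and Rbfox2 from 0.942 (0.841 to 1.05) to 1.004 (0.857 to 1.18), while Rbfox3 had 0.875 (0.782 to 0.977) and 0.864 (0.743 to 1.004). The Acta1 promoter had a ratio of 2.30 (1.55 to 3.36) over all segments and 4.50 (2.15 to 9.45) within them. The promoters of the neuron genes did not keep their low values, with 0.253 (0.151 to 0.4001) and 0.634 (0.338 to 1.19) for Tubb3 and 0.403 (0.238 to 0.642) and 1.32 (0.725 to 2.39) for Stmn2, and the Ttn promoter had 0.819 (0.250 to 2.11) and 2.76 (0.521 to 14.7). The contrast in marker RNA was itself smaller within segments, where Acta1 went from 4.06 to 2.55 (2.34 to 2.78), Tubb3 from 0.664 to 0.859 (0.719 to 1.03) and Stmn2 from 0.631 to 0.832 (0.706 to 0.980).

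Neuron-rich spots were compared with the other kept spots in the same way, within 19 segments (143 and 739 spots). For RNA, the gene body and each of the 14 starts of the Rbfox genes, the within-segment intervals included 1. Start 2 of Rbfox1 had a ratio of 1.55 (1.003 to 2.32) over all segments and 1.23 (0.772 to 1.96) within them, and start 2 of Rbfox3 1.30 (0.801 to 2.01) and 1.18 (0.724 to 1.94). The promoter of Tubb3, one of the genes that chose these spots by RNA, had 1.07 (0.761 to 1.46) and 1.06 (0.745 to 1.496).

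**Figure D2:**
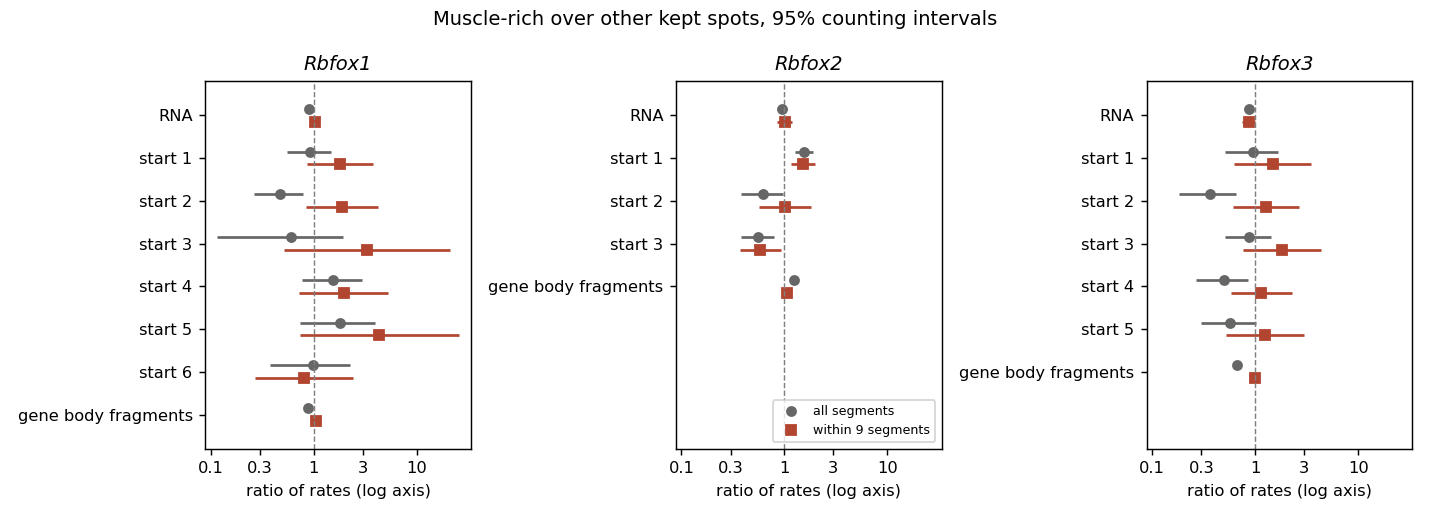
Ratio of muscle-rich over other kept spots for RNA, each start and the gene body, over all segments (grey circles) and within the 9 second segments with at least 5 spots of each (red squares), on a log axis with 95% counting intervals. Starts 1 and 3 of Rbfox2 stay at 1.52 and 0.586 within segments, whereas start 2 of Rbfox1 and start 2 of Rbfox3 move from 0.475 to 1.89 and from 0.362 to 1.28.

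Kept spots were also ranked into 5 equal groups (quintiles) by marker share. From the lowest to the highest quintile of Tubb3 and Stmn2 share, Rbfox1 RNA went from 2458 (2383 to 2536) to 2629 (2551 to 2709) CPM, and fragments at its starts from 66.7 (53.7 to 81.9) to 113 (93.1 to 135) FPM. Rbfox3 RNA was 457 (425 to 491) CPM in the lowest quintile and 486 (453 to 521) in the highest, with start fragments of 111 (94.5 to 131) and 159 (136 to 186) FPM. By Acta1 and Ttn share, Rbfox1 RNA was 2573 to 2635 CPM in the lowest 3 quintiles and 2370.2 (2299 to 2444) in the highest. Rbfox3 start fragments were 155 (132 to 180.4) FPM in the lowest muscle quintile and 98.7 (84.0 to 115) in the highest. Rbfox2 RNA lay between 402 and 450.1 CPM, and its start fragments between 186 and 227 FPM, in both rankings.

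**Figure D3:**
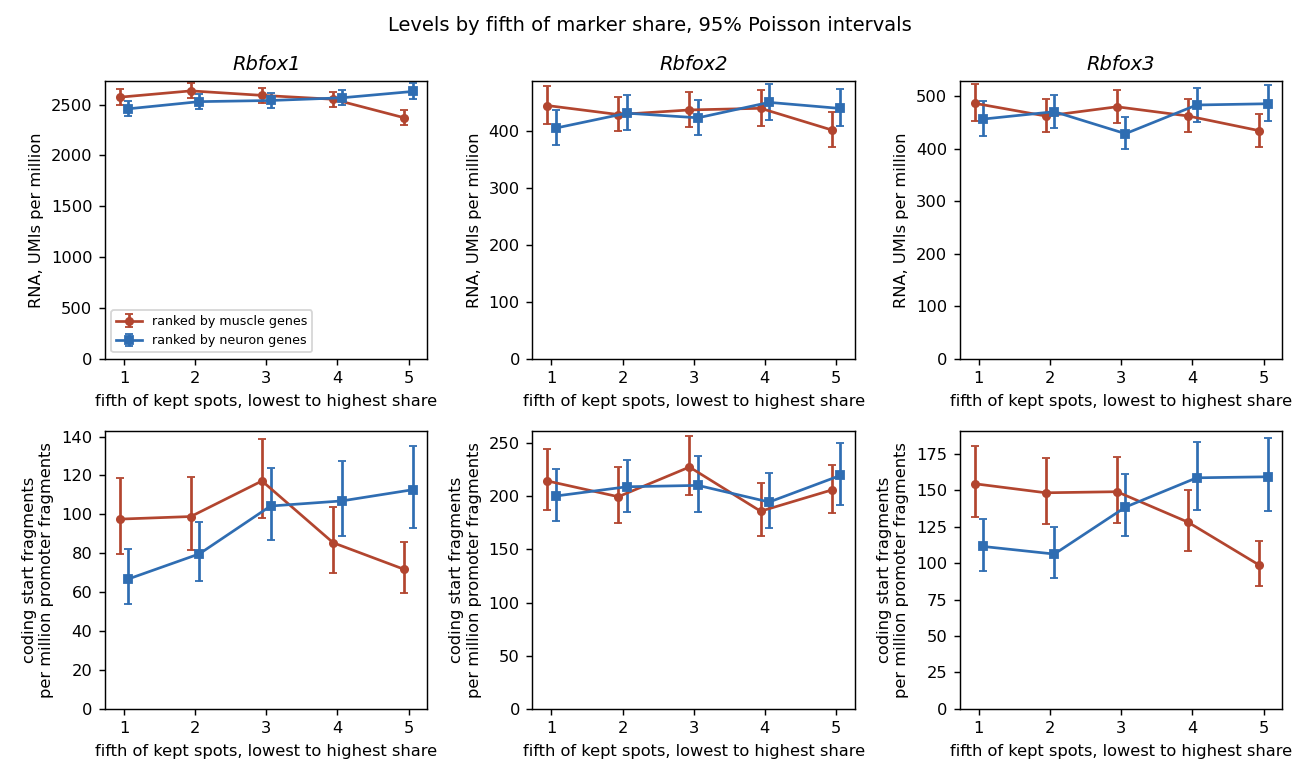
RNA (upper row, CPM) and coding start fragments (lower row, FPM) of the 3 genes by quintile of kept spots, ranked by muscle genes (red circles) or neuron genes (blue squares), with 95% Poisson intervals and axes from 0. RNA lines are nearly flat, and start fragments reach 113 FPM for Rbfox1 and 159 FPM for Rbfox3 in the highest neuron quintile.

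The top 10% of spots by each of 14 marker lists gave levels for other kinds of spot. Some lists rest on few marker UMIs, with 821 marker CPM at a median of 3235 UMIs in GABAergic spots. In microglia spots these were 436 CPM and 3145 UMIs, against a median of 4157 UMIs over all kept spots. Each interval covers 1 list and was not adjusted for the number of lists and genes. Rbfox1 RNA ran from 2245 (2143 to 2352) CPM in fibroblast spots through 2250.2 in epithelial and 2282 in skeletal muscle spots to 2635 in choroid plexus and 2657 (2538 to 2781) in GABAergic spots. Neighbours in this order did not differ beyond their intervals. Rbfox3 RNA was highest in GABAergic spots, at 534 (482 to 591) CPM or 1.16 times the rest (1.04 to 1.29), and lowest in pituitary spots, at 392 (345 to 443) CPM or 0.832 times the rest (0.730 to 0.945). With the top 20% of spots the pituitary level was 450.5 CPM, above that of skeletal muscle spots at 433, so this lowest place did not hold. Rbfox2 RNA was highest in glutamatergic spots, at 502 (454 to 554) CPM or 1.19 times the rest (1.07 to 1.32), and lowest in oligodendrocyte precursor spots, at 376 (332 to 425) CPM. With the top 5% of spots Rbfox2 was lowest in choroid plexus spots, at 384 CPM, with oligodendrocyte precursor spots at 391. The RNA ratios to the rest lay between 0.832 and 1.19 over all genes and lists.

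Start fragments spread further than RNA in the same spots, but rest on lower counts. For Rbfox1 there were 30 to 67 start fragments per list against 1632 to 2226 UMIs. Counting error alone gives a wider spread at such counts, and its part was not measured. Those of Rbfox1 had a ratio to the rest of 0.573 (0.417 to 0.771) in fibroblast spots, 0.627 (0.477 to 0.813) in skeletal muscle spots and 1.57 (1.20 to 2.03) in neuron spots. Those of Rbfox3 had 0.502 (0.380 to 0.652), 0.536 (0.420 to 0.674) and 1.47 (1.17 to 1.83). Those of Rbfox2 had 1.02 (0.864 to 1.19), 1.02 (0.880 to 1.18) and 0.937 (0.751 to 1.16), and in GABAergic spots 1.29 (1.07 to 1.54), the only list whose interval excluded 1 for this gene. Start fragments of Rbfox1 were also low in microglia spots, at 0.583 (0.390 to 0.842), and in epithelial spots, at 0.620 (0.442 to 0.850). In choroid plexus spots the start fragments of Rbfox3 were also high, at 1.49 (1.20 to 1.83), with RNA 0.989 times the rest (0.885 to 1.10), and in cycling spots low, at 0.623 (0.463 to 0.824). The lists shared spots, since 63 fibroblast and 55 epithelial spots were also muscle-rich.

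**Figure D4:**
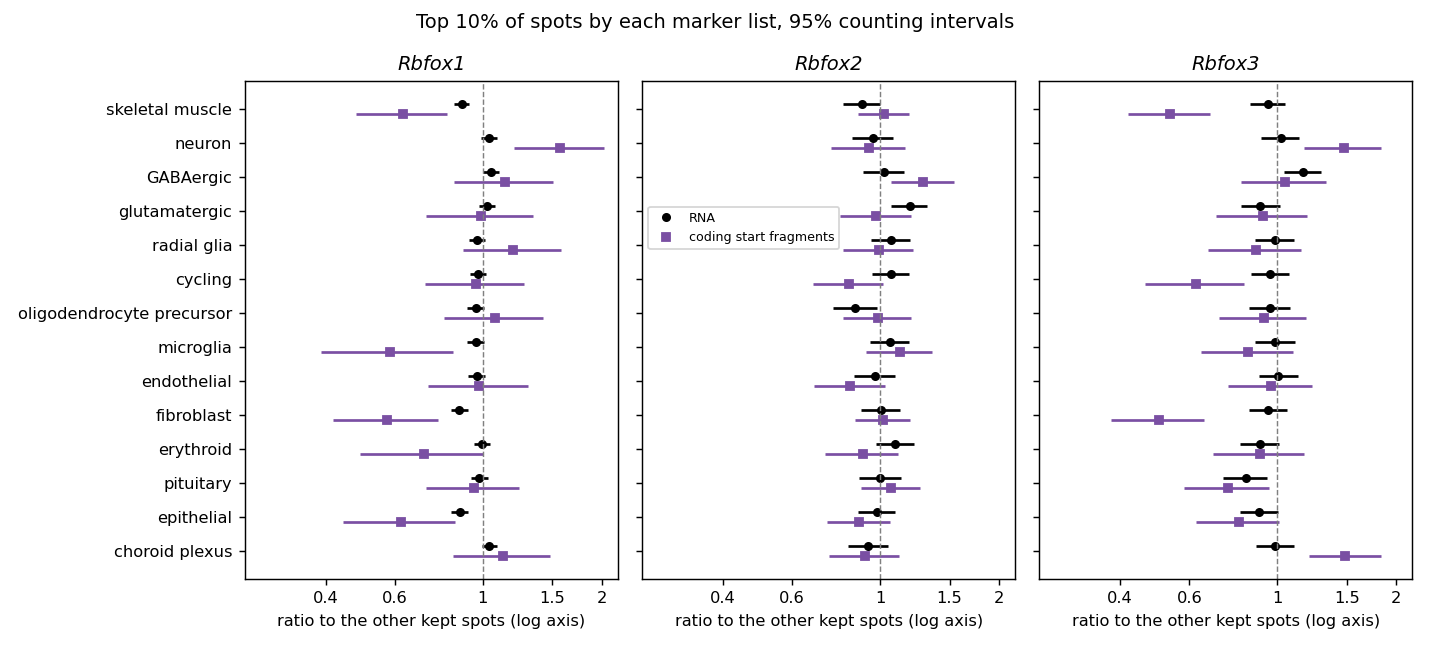
Ratio to the other kept spots of RNA (black circles) and coding start fragments (purple squares) in the top 10% of spots by each of 14 marker lists, on a log axis with 95% counting intervals. RNA ratios stay between 0.832 and 1.19, and start fragments of Rbfox1 and Rbfox3 reach 0.573 and 0.502 in fibroblast spots.

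The matrix listed 106 peaks in the bodies of the 3 genes or within 100 kb of their principal starts, 37 for Rbfox1, 30 for Rbfox2 and 39 for Rbfox3. They held 41 to 970 cut sites in kept spots (median 127), and 35 of the Rbfox1 peaks lay in introns. With at least 50 cut sites in both groups together, 15 peaks could be compared. Muscle-rich spots held 2364679 cut sites in peaks and neuron-rich spots 1303316. A peak can therefore pass this minimum mainly through its muscle-rich count, which holds for all peaks of the matrix. Near Rbfox2, 5 of 8 peaks were 1.5-fold or more higher in muscle-rich spots and 2 in neuron-rich spots. Of those 5, 2 lay 51.9 and 60.1 kb upstream of Rbfox2 and nearer to the principal start of Apol7a, at 40284 and 32055 bp, and the further of them overlapped an exon of Gm49436. Near Rbfox3, 0 of 5 were higher in muscle-rich and 4 in neuron-rich spots, and near Rbfox1 0 and 1 of 2. The 4 near Rbfox3 included peaks 47.8 and 89.3 kb upstream that were nearer to the principal start of Enpp7, at 30858 and 10645 bp. Among 17464 such peaks of the whole matrix, 28.5% were 1.5-fold or more higher in muscle-rich spots and 15.1% in neuron-rich spots. The cut sites of 1 fragment are not independent, so intervals on cut sites are too narrow.

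Among peaks with at least 50 cut sites, those furthest towards muscle-rich spots lay around Rbfox2. An intergenic peak 29.6 kb upstream of the principal start (chr15:77336044-77336941) held 71 and 13 cut sites in muscle-rich and neuron-rich spots (3.01, 1.65 to 5.93). An intronic peak 143 kb downstream (chr15:77163062-77163904) held 47 and 9 (2.88, 1.39 to 6.68). Both peaks passed the minimum mainly through their muscle-rich counts. Start 3 of Rbfox2 (77153556 to 77153812), which is not a principal start, lies nearer to the intronic peak than any principal start. The nearest principal start of a coding gene was that of Mb, the gene of myoglobin, at 112813 bp. The peak at start 1 held 204 and 68 cut sites (1.65, 1.25 to 2.21), that at start 2 39 and 47 (0.457, 0.291 to 0.714) and that at start 3 51 and 52 (0.541, 0.360 to 0.811).

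Around Rbfox3 the peak at the principal start held 19 and 31 cut sites (0.338, 0.180 to 0.617), an intronic peak 194 kb downstream 21 and 32 (0.362, 0.198 to 0.647) and an intergenic peak 89.3 kb upstream 23 and 37 (0.343, 0.194 to 0.592). The peak at start 2 of Rbfox1, whose sequence is shown above, held 24 and 40 (0.331, 0.191 to 0.562). Below the minimum, an intronic peak of Rbfox1 180.4 kb upstream of the principal start (chr16:6889061-6889914) held 22 and 0 cut sites, from 11 and 0 fragments, with a lower limit of 1.44 by fragments. Intronic peaks below the minimum lay as far the other way, with 3 and 14 cut sites in Rbfox1 (chr16:6292963-6293880), a fragment ratio of 0.164 (0.0166 to 0.860), and 3 and 16 in Rbfox3 (chr11:118604110-118604917), a fragment ratio of 0.127 (0.0134 to 0.615).

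**Figure D5:**
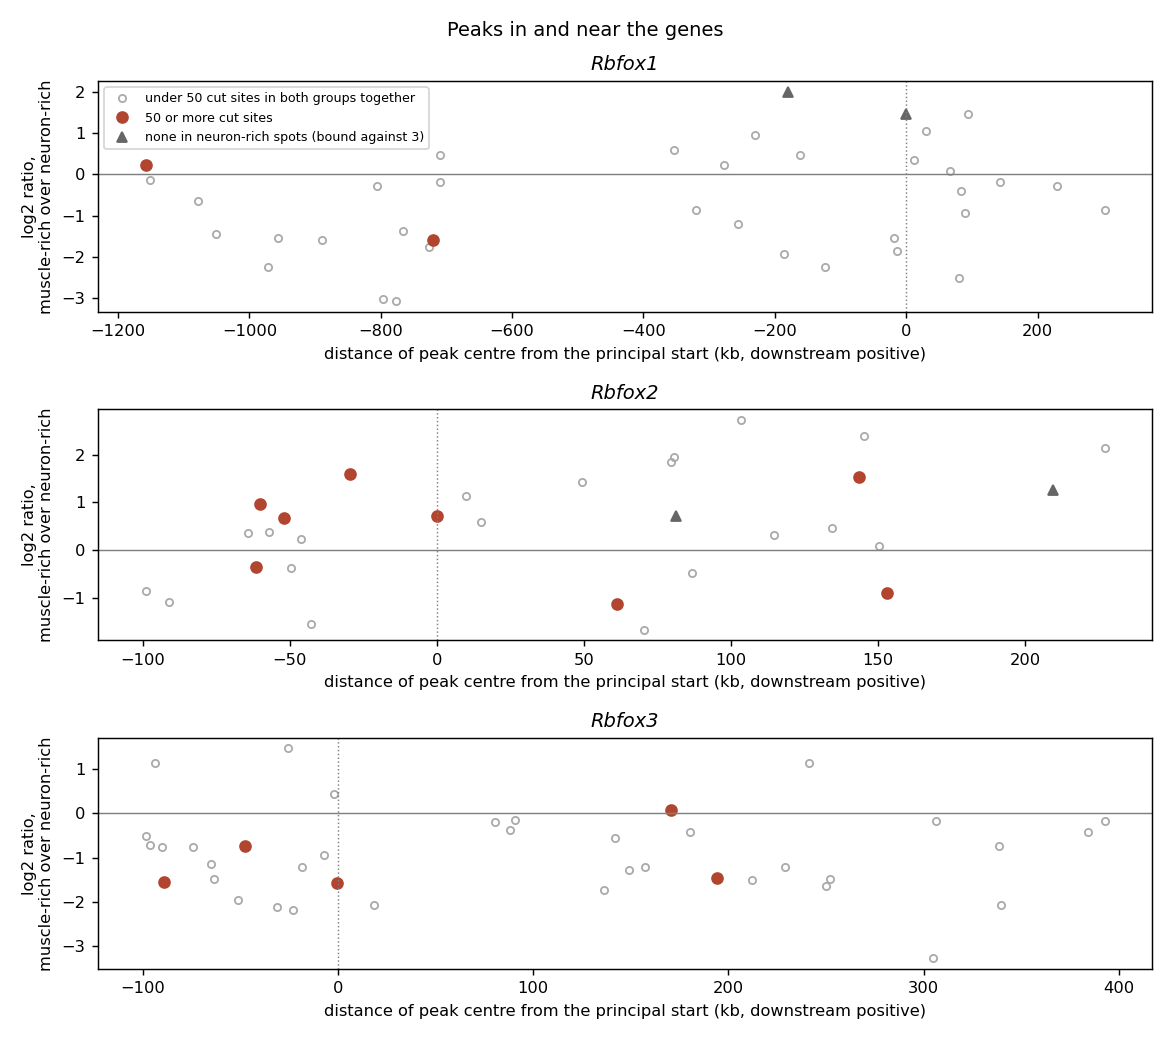
Log2 ratio of cut sites in muscle-rich over neuron-rich spots for the 106 peaks in and near the 3 genes, against the distance of the peak centre from the principal start in kb. Filled points have at least 50 cut sites in both groups together, open points fewer, and triangles mark 4 peaks with 0 cut sites in neuron-rich spots, drawn at their ratio against a floor of 3. Of the filled points near Rbfox2, 5 of 8 lie 1.5-fold or more towards muscle-rich spots and 2 towards neuron-rich spots. Near Rbfox3 these counts are 0 and 4 of 5. Among 17464 such peaks of the whole matrix the shares were 28.5% and 15.1%.

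Other splicing regulators gave a scale for these values. Of 25 tissue splicing regulators, 12 had at least 200 UMIs in both groups together, with a median RNA ratio of 0.736 against 0.909 for all genes. Mbnl2, a muscleblind protein, was 1.5-fold or more higher in muscle-rich spots (1.53, 1.22 to 1.92), and Nova1, a neuronal splicing factor, in neuron-rich spots (0.581, 0.472 to 0.714). The most abundant were Celf2 (0.844, 0.784 to 0.909) and Elavl3 (0.684, 0.628 to 0.746), which encode RNA-binding proteins, Celf2 one also used in heart and muscle and Elavl3 a neuronal one. Of 8 proteins of the large assembly of splicing regulators, only the gene of the helicase Ddx5 reached the minimum (1.20, 0.923 to 1.57). Of 16 genes with exons known to be controlled by Rbfox proteins, 8 were compared, with a median of 0.941. Tpm1, a tropomyosin gene, was higher in muscle-rich spots (3.82, 3.34 to 4.37), and the most abundant were Ank3, an ankyrin gene (0.826, 0.759 to 0.898), and Cacna1c, a calcium channel gene (0.853, 0.754 to 0.965). Exon use was not measured, since the matrix counts genes.

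Rbfox1 was one of 225 protein-coding genes with a body over 500 kb. Of these, 177 were compared, and their median ratio was 0.848. Rbfox1, at 0.866, lay above 58.2% of them. Only Tenm2, a teneurin gene, had more UMIs (31956, ratio 0.796). Mecom was higher in muscle-rich spots (ratio 3.06), and Grm8 (0.589), Mgat4c (0.655) and Csmd3 (0.665) in neuron-rich spots.

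Over 46 strips of spots that shared a second segment, Rbfox1 RNA ranged from 2174 to 3195 CPM (median 2534), with an SD of 245 against 129.8 from counting alone. Rbfox3 ranged from 201 to 630.4 CPM (SD 76.7 against 54.8), and Rbfox2 from 338 to 562 (SD 54.5 against 53.3). As a description over strips of 1 library, Rbfox1 RNA had a Spearman rho of 0.504 (Pearson r 0.546) with summed Tubb3 and Stmn2 and of -0.469 (r -0.500) with summed Acta1 and Ttn. Rbfox3 had a rho of 0.380 and -0.185, and Rbfox2 of 0.167 and 0.0727. RNA and start fragments of the same gene had a rho of 0.228 for Rbfox1, 0.133 for Rbfox2 and 0.0859 for Rbfox3.

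The strip profiles most like that of Rbfox1 by Spearman rho, among 1827 genes with at least 1000 UMIs, were those of Tmem132a (0.686), Map2 (0.683), Ftl1 (0.680), Sez6 (0.678) and Ptprd (0.656). For Rbfox2 they included Tnrc6a (0.472), Zc3h7b (0.462), B3gat1 (0.431) and Nlgn3 (0.423), and for Rbfox3 Atp6v0b (0.551), Kcnq5 (0.532), Dtx1 (0.529), Plekha6 (0.517) and Clip2 (0.503). The SD of Rbfox2 over strips was 54.5 against 53.3 from counting alone, so little of its profile goes beyond counting error. None of the 5 profiles of any of the 3 genes was among its 5 most similar over the 50 first segments. Over these crossing strips their rho lay between -0.193 (Tmem132a with Rbfox1) and 0.220 (Ftl1 with Rbfox1). With genes of at least 300 UMIs, 5 of the 5 remained for Rbfox1, 2 for Rbfox2 and 1 for Rbfox3.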

How the data were processed

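The authors ran cellranger-arc 2.0.1 with an mm10 reference, per the file headers, and the submitters' processing notes name Seurat 4.0. The deposited matrix holds raw counts, namely UMI counts per gene and cut-site counts for 91223 peaks, and the deposited fragment file lists 52942843 fragments. How barcodes were chosen, and whether introns and strand were used in counting, is not given in the sources used here. Columns of counts were not normalised.

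Spots were kept at 500 to 6000 genes and no more than 20% of UMIs from mitochondrial genes. Starts came from GENCODE M21. As principal start, the start furthest upstream among principal transcripts was taken, and fragments overlapping 1 kb on each side were counted. Rates are per 1000000 UMIs, promoter fragments, all fragments or cut sites in peaks of the same spots. Intervals are exact Poisson, conditional binomial, exact Clopper-Pearson or, within segments, Mantel-Haenszel intervals at 95%. With 1 library per assay no test was made. Intervals cover counting error only.

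The members, lists and groups were chosen with earlier results of these data known. Genes nearest to or overlapping some of the described peaks are named. Tissue splicing regulators below the minimum are named where their interval excluded 1. The other named genes are the members, the 4 marker genes, the 2 most abundant genes of each list and those past 1.5-fold, genes inside members with at least 50 UMIs, and the 5 most similar strip profiles. For Rbfox2, 1 of these profiles is not reported here. Analyses used the Python packages numpy 2.4.6, scipy 1.17.1 and pandas 2.3.3. The ratio intervals were tested on simulated counts that held counting error alone, as the intervals assume, so further spread between spots was not covered. Window counts were checked against a direct count of the fragments at random positions. Alternatives changed the spot choice, the markers, the denominators, the windows and the minimums. Values within segments, gene body fragments, all starts together and fragments in peaks were added after seeing the data.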

Additional observations from a re-analysis of the deposited data

Results flagged for a closer look

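Accessibility fragments of the 3 genes also occurred in the 507 barcodes outside the count matrix, which no comparison used and which have no RNA counts here. At the annotated coding starts there were 47 fragments for Rbfox1, 104 for Rbfox2 and 72 for Rbfox3 among 5833396 fragments. Per 1000000 fragments this was 8.06, 17.8 and 12.3, against 12.1, 27.0 and 17.3 in matrix barcodes, ratios of 0.668 (0.485 to 0.901), 0.660 (0.535 to 0.807) and 0.713 (0.553 to 0.909). Promoter fragments of all genes were not counted in these barcodes. The lower rates can therefore not be read as particular to the 3 genes.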

How the results depend on the processing

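Leaving out the spot filter chose the same spots and is not counted here. All 18 other alternative RNA ratios of the 3 genes, and 32 of 35 promoter ratios, stayed within the main interval. With the top 20% of spots the interval of the Rbfox3 RNA ratio came to exclude equal levels. The log2 promoter ratio of Rbfox2 changed sign, from 0.77 to -0.019, with all coding starts together. That of Rbfox1, whose main interval included 0, went from 0.80 to -0.62 with all coding starts together, to -0.28 over the gene body and to -0.036 with the top 5% of spots. That of Rbfox3 went from -1.77 to -2.95 with fragments shorter than a nucleosome and to -0.69 over the gene body. Of the peaks, 3 rather than 5 were higher in muscle-rich spots with a distance of 50 kb. With a minimum of 100 cut sites, 3 peaks rather than 15 could be compared, of which 2 were higher in muscle-rich and 1 in neuron-rich spots. Of 69 alternative ratios of single starts, 68 stayed within the main interval, but intervals of starts 1, 2 and 3 of Rbfox2 and 4 and 5 of Rbfox3 came to include 1 under some spot choices. Of 84 alternative RNA levels by marker list, 7 left the main interval. Within second segments, the log2 ratio of muscle-rich over other kept spots changed sign where the main interval excluded 0 for Rbfox1 RNA (from -0.14 to 0.057), start 2 of Rbfox1 (-1.07 to 0.92), start 2 of Rbfox2 (-0.69 to 0.016) and starts 2 (-1.46 to 0.36) and 4 (-1.02 to 0.20) of Rbfox3. It also changed sign, from main intervals that included 0, for starts 1 (-0.12 to 0.86) and 3 (-0.74 to 1.72) of Rbfox1, Rbfox2 RNA (-0.086 to 0.0056) and starts 1 (-0.068 to 0.56), 3 (-0.20 to 0.87) and 5 (-0.80 to 0.31) of Rbfox3. The ratio of Rbfox1 gene body fragments likewise crossed 1, from 0.875 (0.844 to 0.907) to 1.06 (1.01 to 1.12). The cause was not tested. The planned comparison of muscle-rich with neuron-rich spots within segments gave no value, since no segment held 5 of both, and a window of 500 bp gave none for Rbfox1, which had no fragment there in neuron-rich spots. Single starts rest on 3 to 128 fragments per group, which limits all start ratios. No paired analysis was possible because there was 1 library per assay.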
